A study of Canis lupus familiaris with 8 samples.

Results

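The genes described here are interferon-stimulated genes, chosen by symbol from a list of 43 and read in every RNA library of the pituitary and adrenal cortex of dogs. The deposited tables held 38 of the 43 symbols among 24580 genes. HERC5, USP18, OASL, SAMD9 and STAT2 were matched to no row by symbol and were not analysed here. Of the 38, 37 had a mean of at least 1 FPKM (fragments corrected for gene length and sequencing depth) over the libraries and entered the tests, along with 14771 other genes. IFIT5 did not, with 2 to 9 recovered reads and at most 0.48 FPKM in a library.

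Cells that detect viral RNA or DNA secrete interferons, and interferons bound to their receptors act through JAK kinases and STAT transcription factors to switch on these genes. Their products bind or degrade foreign RNA, trap virus particles, attach the small protein ISG15 to other proteins, or amplify the response as sensors and transcription factors. The pituitary releases corticotropin, which drives glucocorticoid secretion by the adrenal cortex, and glucocorticoids are known to dampen immune gene expression.

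Messenger RNA of adult Beagle and adult Chinese Field Dog was sequenced from both glands. The dogs were either under chronic stress or in an arm labelled as treated with non-disposal. That label was read as no stress treatment, and the arm is called unexposed here. Each combination of breed, gland and exposure was 1 library, 8 in all, and the labels give neither the stressor nor the number of animals behind a library, which may hold RNA of 1 animal or of several. Both breeds therefore served as repeats of the exposure, and both exposures as repeats of the breed, so p-values cover only the spread left between such pairs. The extraction note speaks of spleen while the tissue labels name the 2 glands. The labelled glands were borne out by MC2R, the corticotropin receptor, at 0 FPKM in the 4 pituitaries and at 88.9 to 98.1 FPKM in the 4 adrenal libraries. The growth hormone gene GH1 was listed at 0 in the unexposed Beagle pituitary, where the authors' table marks it as failed. The adrenal libraries also held medulla genes, with TH, which makes the precursor of catecholamines, at 134 to 255 FPKM. Recovered reads per library ran from 14327357 to 18712035. The stressed Chinese Field Dog pituitary stood apart: 9 forebrain neuron genes summed to 1503 FPKM there and to 132 to 138 FPKM in the other 3 pituitaries. NEUROD6, a neuron factor of the cortex, was at 45.2 FPKM there and at 0 in the other 7 libraries. Differences without that library are given beside the pituitary tests of stress and breed and beside the test between the glands' stress effects.

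In the pituitary, interferon-stimulated genes stood higher in the stressed library of each breed. In the Beagle 35 of 37 were higher in the stressed than in the unexposed library, where 49.2% of all tested genes were, with a median log2 difference of 0.61 against 0.00 for all genes. In the Chinese Field Dog 36 of 37 were higher, where 45.6% of all genes were, with a median of 0.48 against -0.03. Both breeds shared the direction for 34 of 37, and 22.3% of all genes were higher in both. IFIH1, ADAR and TRIM25 were the exceptions. A difference of at least 1.5-fold in both breeds was met by 11 members (DDX58, SAMD9L, RSAD2, IRF7, DDX60, IFIT1, ISG15, IFI44, IFI44L, CMPK2 and BST2) and by 1.08% of all genes. These differences are on the log2(FPKM + 1) scale, which understates changes of weakly expressed genes.

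No member passed the test for stress in the pituitary. By limma, 0 of 37 had an adjusted p below 0.05 over all 14808 genes, as did 0.00675% of all genes, and the lowest adjusted p among the members was 0.881. Before adjustment 24 of the 37 were higher at a p below 0.05, as were 2.93% of all genes, and 0 were lower (1.54%). By edgeR 0 passed as well (0% of all genes), with 24 at an unadjusted p below 0.05, while DESeq2 called 5 (0.432%), namely ISG15, IFIT1, IFI44L, SAMD9L and IFI44. Both stressed pituitaries lay above both unexposed ones for 23 of 37, and for 13.5% of all genes. The median fitted log2 difference was 0.63 for the members and -0.01 for all genes. Without the stressed Chinese Field Dog pituitary the fitted stress difference of the pituitary is that of the Beagle pair alone, with a median of 0.61. That fit has no residual spread left from the pituitary, so p-values for the pituitary are not given. In bulk tissue, fewer cells of a type and less RNA per cell cannot be told apart.

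**Figure D1:**
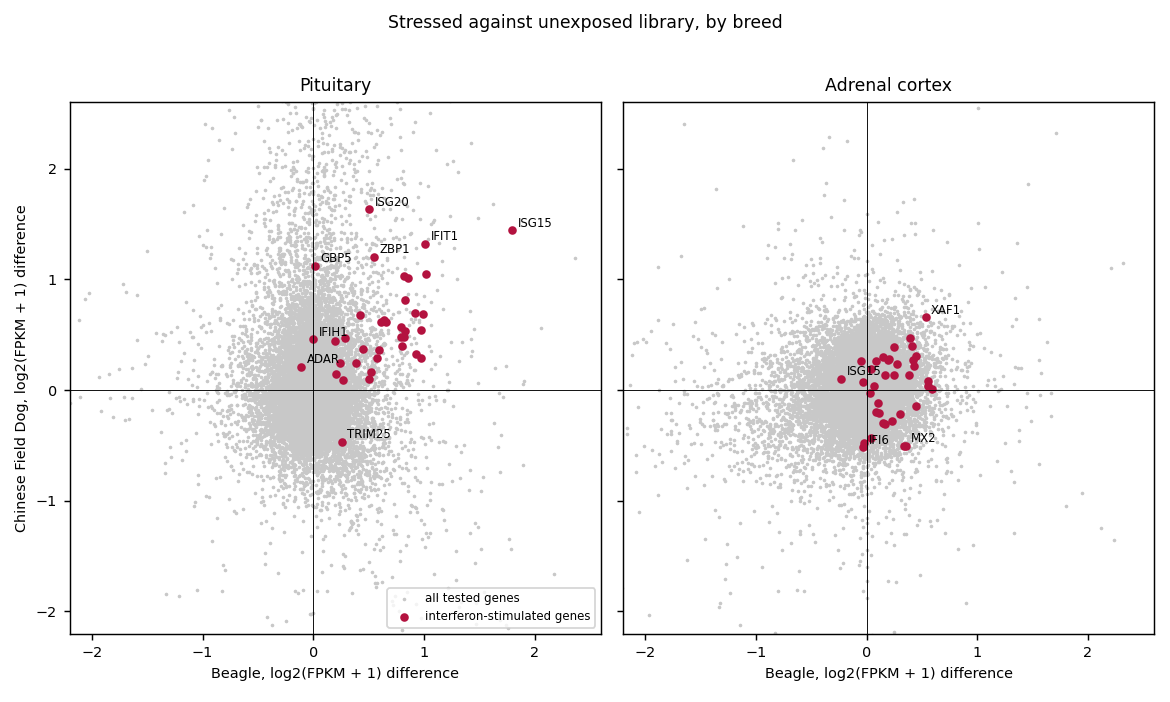
Difference in log2(FPKM + 1) between the stressed and the unexposed library, Beagle on the horizontal and Chinese Field Dog on the vertical axis, for the pituitary (left) and adrenal cortex (right). Red points are 37 interferon-stimulated genes and grey points the tested genes, of which 359 and 175 lie outside the axes. In the pituitary 34 red points lie in the upper right part, with ISG15 farthest out, and in the adrenal cortex 20 do.

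Among the ubiquitin-like modifier and the protein-modifying enzymes grouped with it, ISG15 differed most. In what follows, pairs of values are FPKM in the unexposed and then the stressed library. ISG15 (ENSCAFG00000019348, CanFam3.1 chromosome 5, 56230817 to 56237586), the small protein conjugated to targets in infected cells, read 15.5 and 56.2 in the Beagle pituitary, 36.8 and 102 in the Chinese Field Dog pituitary, 81.1 and 68.9 in the Beagle adrenal cortex, and 91.4 and 98.2 in that of the Chinese Field Dog. Both stressed pituitaries were above both unexposed ones, and the unexposed Beagle pituitary was the lowest of all 8 libraries. The 95% Clopper-Pearson interval of the read ratio, which covers counting error only, was 1.66 to 2.05 on the log2 scale in the Beagle pituitary and 1.34 to 1.60 in the Chinese Field Dog pituitary. The fitted difference was 1.62 (SE 0.17), with an unadjusted limma p of 0.000672 and an adjusted p of 0.881.

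HERC6, a ligase of the HECT family, read 8.11 and 15.0 in the Beagle pituitary, 13.6 and 19.4 in the Chinese Field Dog pituitary, 13.9 and 13.4 in the Beagle adrenal cortex, and 24.5 and 29.6 in the Chinese Field Dog adrenal cortex. PARP14, which attaches single ADP-ribose units to proteins, read 5.06 and 9.58, 8.56 and 11.6, 7.03 and 9.45, and 11.5 and 12.7 over the same 4 pairs. For both genes the stressed pituitaries lay above the unexposed ones. DTX3L, a ubiquitin ligase that pairs with PARP9, read 7.33 and 11.0, 9.37 and 10.6, 10.5 and 14.4, and 14.9 and 18.1, its stressed pituitaries both above the unexposed ones, by a small step in the Chinese Field Dog. TRIM25, the ligase that activates the RNA sensor encoded by DDX58, read 16.5 and 19.99 in the Beagle pituitary but 19.7 and 13.99 in the Chinese Field Dog pituitary. Its adrenal values were far higher and close together, 61.3 and 64.1 in the Beagle and 65.0 and 66.5 in the Chinese Field Dog. Of this group's 6 members, 3 were higher with stress in the pituitary at an unadjusted limma p below 0.05 (2.93% of all genes). The group's median fitted log2 difference was 0.47. PARP9, the sixth, ranged from 4.45 to 7.60 FPKM over the 8 libraries.

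The effectors that bind or degrade RNA included IFIT1, which recognises viral RNA lacking cap methylation. IFIT1 read 1.29 and 3.61 in the Beagle pituitary, 3.62 and 10.5 in the Chinese Field Dog pituitary, 5.93 and 7.21 in the Beagle adrenal cortex, and 7.27 and 9.80 in the Chinese Field Dog adrenal cortex. Each stressed library was above its unexposed partner, yet the stressed Beagle pituitary only reached the level of the unexposed Chinese Field Dog pituitary. The fitted pituitary difference was 1.17 (SE 0.15, adjusted limma p 0.881). Its neighbours on chromosome 4 behaved less alike. IFIT2 read 1.56 and 1.94, 3.05 and 4.51, 3.35 and 4.11, and 5.94 and 4.72 over the same pairs. IFIT3 read 2.53 and 3.74, 5.22 and 8.97, 14.7 and 14.3, and 21.5 and 22.7. Both genes had each Chinese Field Dog library above each Beagle library within either gland, and IFIT3 hardly differed with stress in the adrenal cortex.

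OAS1, whose product makes the second messenger that activates the ribonuclease RNase L, read 14.2 and 28.7 in the Beagle pituitary, 25.6 and 37.8 in the Chinese Field Dog pituitary, 27.8 and 29.7 in the Beagle adrenal cortex, and 34.4 and 41.3 in the Chinese Field Dog adrenal cortex. Both stressed pituitaries stood above both unexposed ones. OAS2 and OAS3, of the same locus, kept that order too, within 12.4 to 25.4 and 6.69 to 13.4 FPKM in the pituitaries. ISG20, an exonuclease for single-stranded RNA, was scarce: 0.143 and 0.623 in the Beagle pituitary, 0.831 and 4.68 in the Chinese Field Dog pituitary, 1.01 and 2.03 in the Beagle adrenal cortex, and 3.27 and 3.30 in that of the Chinese Field Dog. Only 2 and 9 reads stood behind the Beagle pituitary pair, whose read ratio had an interval of -0.16 to 5.37 on the log2 scale, so that its difference was not detectable at this depth. ZBP1, a sensor of Z-form nucleic acid, read 0.564 and 1.29, 1.35 and 4.40, 1.63 and 2.86, and 4.03 and 4.31 over the 4 pairs, from 11 to 84 reads. It was higher in the stressed library of every pair. ADAR, which edits adenosine to inosine in double-stranded RNA, read 39.0 and 36.0, 37.7 and 43.7, 29.0 and 30.8, and 32.0 and 27.9, with no shared direction between the breeds in either gland. Of this group's 10 tested members, 8 were higher with stress in the pituitary at an unadjusted limma p below 0.05 (2.93% of all genes). The group's median fitted log2 difference was 0.59. EIF2AK2, the kinase PKR that halts translation, read 7.49 and 11.7 in the Beagle and 9.55 and 11.9 in the Chinese Field Dog pituitary.

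The group of GTPases and membrane or metabolic effectors held the most abundant members. IFI6, an interferon-induced membrane protein, read 116 and 134 in the Beagle pituitary, 148 and 164 in the Chinese Field Dog pituitary, 99.4 and 97.2 in the Beagle adrenal cortex, and 108 and 75.4 in the Chinese Field Dog adrenal cortex. MX1, a GTPase that blocks virus replication, read 70.9 and 123, 114 and 160, 101 and 99.4, and 115 and 82.2. These 2 genes made up 16.3% to 35.1% of the summed member FPKM of a library, and both were the members lower with stress in the adrenal cortex of both breeds. MX2, the neighbouring paralogue, read 4.40 and 6.36, 5.47 and 7.39, 8.49 and 11.1, and 12.7 and 8.68. For MX1 and MX2 both stressed pituitaries were above both unexposed ones, which did not hold for IFI6.

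IFI44 read 20.7 and 42.1 in the Beagle pituitary, 35.2 and 57.1 in the Chinese Field Dog pituitary, 41.4 and 47.5 in the Beagle adrenal cortex, and 58.7 and 71.2 in that of the Chinese Field Dog. IFI44L, its paralogue, read 6.91 and 13.3, 9.44 and 20.1, 10.3 and 12.1, and 12.6 and 15.5. Both were higher with stress in each pair, by a fitted 0.84 (SE 0.15) and 0.94 (SE 0.13) in the pituitary. The tables list 1 shared span for the pair (chromosome 6, 68364493 to 68400785), so their reads may not be separable. IFI35 read 18.6 and 22.6, 25.2 and 26.9, 28.1 and 28.9, and 31.0 and 35.4, a narrow range in which stress added little.

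RSAD2, which makes a chain-terminating nucleotide, read 0.277 and 1.25 in the Beagle pituitary, 1.15 and 3.38 in the Chinese Field Dog pituitary, 1.85 and 2.601 in the Beagle adrenal cortex, and 3.90 and 2.46 in the Chinese Field Dog adrenal cortex. CMPK2, a mitochondrial nucleotide kinase encoded beside it, read 1.26 and 3.59, 2.52 and 6.30, 4.05 and 4.68, and 7.05 and 5.51. The pair moved alike: higher with stress in both pituitaries and in the Beagle adrenal cortex, lower in the Chinese Field Dog adrenal cortex. The unexposed and stressed Beagle pituitaries held 19 and 89 reads of RSAD2, and 15 and 44 of CMPK2. BST2, or tetherin, which holds budding virus at the cell surface, read 12.2 and 19.9, 18.8 and 29.3, 24.6 and 25.3, and 39.0 and 28.6, in the same order of signs. SAMD9L, an antiviral factor that limits translation, read 7.51 and 15.1, 15.6 and 25.9, 14.3 and 19.4, and 26.7 and 35.4, and was higher with stress in all 4 pairs. XAF1, a pro-apoptotic partner of the caspase inhibitor XIAP, read 5.14 and 9.64, 11.0 and 16.9, 2.06 and 3.42, and 3.74 and 6.49, also higher in all 4. EPSTI1 read 19.98 and 23.8, 20.7 and 24.7, 8.52 and 9.53, and 14.4 and 11.5. The listed span of EPSTI1 (chromosome 3, 52282996 to 52374403) also covers FANCI and POLG, and it held 71 to 240 reads. Of this group's 14 members, 9 were higher in the stressed pituitary at an unadjusted limma p below 0.05 (2.93% of all genes). The group's median fitted log2 difference was 0.64. GBP5, a GTPase that attacks vacuoles of intracellular bacteria, stood out by breed: 0.185 and 0.198 in the Beagle pituitary, from 9 and 10 reads, against 1.26 and 3.92 in that of the Chinese Field Dog. RTP4 ranged from 12.9 to 26.5 FPKM.

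The cytosolic sensors of double-stranded RNA shared the pattern with an exception. DDX58, or RIG-I, read 16.1 and 25.7 in the Beagle pituitary, 19.7 and 31.0 in the Chinese Field Dog pituitary, 31.8 and 32.4 in the Beagle adrenal cortex, and 41.4 and 40.6 in that of the Chinese Field Dog. Its fitted stress difference was 0.64 (SE 0.12) in the pituitary and -0.00 in the adrenal cortex. DHX58, or LGP2, read 13.9 and 25.5, 23.6 and 34.6, 24.0 and 25.8, and 33.8 and 31.1. DDX60 read 5.13 and 8.37, 6.38 and 10.3, 4.08 and 5.93, and 8.004 and 7.14. In these 3 both stressed pituitaries lay above both unexposed ones. IFIH1, or MDA5, the sensor of long double-stranded RNA, read 8.45 and 8.44 in the Beagle pituitary, where the read ratio had an interval of -0.14 to 0.14 on the log2 scale, and 8.28 and 11.8 in the Chinese Field Dog pituitary. Its adrenal values were 6.84 and 8.50 in the Beagle and 10.4 and 12.4 in the Chinese Field Dog.

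Of the transcription factors, IRF7, which amplifies interferon production, read 8.07 and 15.1 in the Beagle pituitary, 13.0 and 23.7 in the Chinese Field Dog pituitary, 7.19 and 10.2 in the Beagle adrenal cortex, and 12.2 and 15.3 in that of the Chinese Field Dog. It was higher with stress in every pair, by a fitted 0.82 (SE 0.13) in the pituitary. The listed span of IRF7 also covers RASSF7, PHRF1, DEAF1 and other genes, and it held 37 to 137 reads. IRF9, the DNA-binding subunit of the complex formed with STAT proteins, read 33.1 and 43.5, 42.3 and 50.2, 29.1 and 32.8, and 40.4 and 44.5. IRF1 read 7.81 and 9.77, 15.8 and 22.3, 8.24 and 12.6, and 17.8 and 18.2. All 3 were higher with stress in each pair. Only IRF7 was higher at an unadjusted limma p below 0.05 in the pituitary (2.93% of all genes). For IRF1 the breeds did not overlap in either gland.

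**Figure D2:**
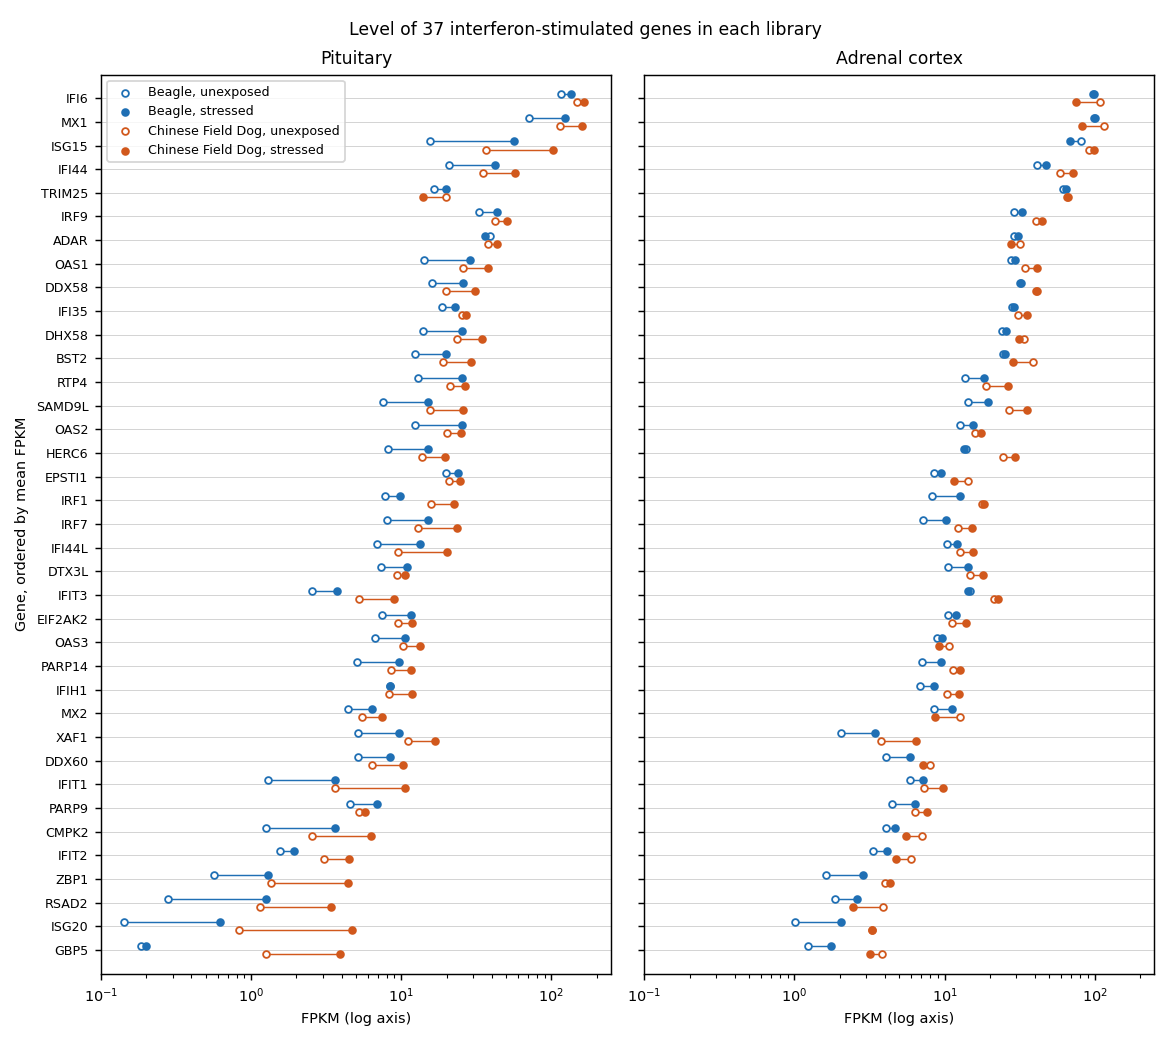
FPKM of 37 interferon-stimulated genes on a log axis in each of 8 libraries, ordered by mean, for the pituitary (left) and adrenal cortex (right). Open points are unexposed and filled points stressed libraries, blue Beagle and orange Chinese Field Dog, and a line joins the pair of a breed. In the pituitary the open blue point is leftmost for 34 of 37 genes and the filled orange point rightmost for 33.

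Among the members the unexposed Beagle pituitary was thus the low end of the series. It was the lowest of the 4 pituitaries for 34 of 37 members and the lowest of all 8 libraries for 27. Both the Beagle stress pair and the unexposed breed pair of the pituitary include this library, so their counts are not independent. The stressed Chinese Field Dog pituitary was the highest pituitary for 33. The same ranks were not counted over all tested genes, so these counts have no share to stand beside. Summed over the members, FPKM came to 533 and 819 in the Beagle pituitary, 769 and 1084 in the Chinese Field Dog pituitary, 765 and 814 in the Beagle adrenal cortex, and 980 and 965 in the Chinese Field Dog adrenal cortex.

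In the adrenal cortex the median differences with stress were smaller than in the pituitary. Most members were higher in the stressed Beagle library, while the Chinese Field Dog was mixed. In the Beagle 32 of 37 were higher in the stressed library (48.6% of all genes), with a median of 0.20, and in the Chinese Field Dog 23 were (49.8%), with a median of 0.08. Both breeds had 20 of 37 higher, as had 25.5% of all genes, and MX1 and IFI6 lower, as were 25.6%. Both stressed libraries lay above both unexposed ones for 1 of 37, EIF2AK2, and for 15.8% of all genes. They lay below both for MX1 and IFI6, and for 12.7% of all genes. On the log2(FPKM + 1) scale none reached 1.5-fold in both breeds, against 0.317% of all genes. XAF1, at 0.53 and 0.66 on that scale, had FPKM ratios of 1.67 and 1.73. By limma 0 of 37 had an adjusted p below 0.05 (0.00675% of all genes), and XAF1, IRF7 and SAMD9L were higher at an unadjusted p below 0.05 (1.28%). EdgeR called 0 too (0% of all genes), as did DESeq2 (0.0675%). The fitted differences of these 3 were 0.60 (SE 0.14), 0.38 (SE 0.13) and 0.40 (SE 0.13). Among GTPases and membrane or metabolic effectors the breeds parted, with 12 of 14 higher in the Beagle and 6 of 14 in the Chinese Field Dog.

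The difference of the stress effect between the glands was tested directly. By limma 0 of 37 had an adjusted p below 0.05 (0.0135% of all genes). At an unadjusted p below 0.05, 10 had a larger effect in the pituitary, as had 2.3% of all genes, and 0 a smaller one (1.25%). These were DDX58, RSAD2, IFIT1, MX1, DHX58, ISG15, IFI44, IFI44L, CMPK2 and BST2. Without the stressed Chinese Field Dog pituitary the pituitary side of this comparison is the Beagle pair alone. Its median stress difference was 0.61, against a fitted median of 0.15 in the adrenal cortex. For ISG15 the pituitary effect exceeded the adrenal one by 1.68 (SE 0.24, adjusted p 0.933) on the log2 scale, and DESeq2 called ISG15 alone of the members (0.182% of all genes). MX1 differed by 0.89 (SE 0.26), being higher in stressed pituitaries and lower in stressed adrenal libraries. SAMD9L, XAF1 and IRF7, which were higher with stress in all 4 pairs, differed by 0.41, 0.09 and 0.45.

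The Chinese Field Dog stood above the Beagle for most members in both glands. In the pituitary 31 of 37 had the higher value in the Chinese Field Dog both with and without stress, as had 24.1% of all genes, and both of its libraries lay above both Beagle libraries for 11 (16.3% of all genes). By limma 0 had an adjusted p below 0.05 (0.0203% of all genes), with a lowest adjusted p of 0.394. At an unadjusted p below 0.05, 20 were higher, as were 4.9% of all genes, and 0 lower (3.04%). DESeq2 called 5 (1.49% of all genes), namely IRF1, SAMD9L, IFIT1, ISG15 and GBP5. The largest fitted differences on the log2(FPKM + 1) scale were 1.48 (SE 0.33) for GBP5, 1.24 (SE 0.34) for ISG20 and 1.17 (SE 0.15) for IFIT1. On recovered reads, with no added 1, DESeq2 gave a log2 difference of 3.58 for GBP5 and 1.53 for IFIT1. The median of the limma fit was 0.52, against -0.02 for all genes. Without the stressed Chinese Field Dog pituitary the breed estimate is that of the unexposed pair alone. There 35 of 37 were higher in the Chinese Field Dog (47.2% of all genes), with a median of 0.64. That pair includes the unexposed Beagle pituitary, the lowest pituitary for 34 of 37 members. In the stressed pair 33 of 37 were higher (45.4% of all genes), with a median of 0.38. IFIH1, PARP9, DTX3L, ADAR, TRIM25 and OAS2 did not keep the direction, and TRIM25 was the lowest in the stressed Chinese Field Dog pituitary, at -0.49.

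In the adrenal cortex every one of the 37 was higher in the unexposed Chinese Field Dog than in the unexposed Beagle, where 43.5% of all genes were. Under stress 31 were (47.7%), the others being RSAD2, OAS3, MX2, MX1, IFI6 and ADAR. Both Chinese Field Dog libraries lay above both Beagle libraries for 30 of 37, as for 18.1% of all genes, which left out EIF2AK2 and those 6. By limma 0 passed (0.0338% of all genes), with a lowest adjusted p of 0.615 for SAMD9L, and 13 were higher at an unadjusted p below 0.05 (2.73%), 0 lower (3.75%). DESeq2 called SAMD9L and HERC6 (0.662% of all genes). HERC6 differed by 0.93 (SE 0.17), SAMD9L by 0.85 (SE 0.13), IRF1 by 0.76 (SE 0.18) and XAF1 by 0.70 (SE 0.14). SAMD9L and IRF7 had equal fitted breed differences in the 2 glands to 2 decimals, 0.85 and 0.62, whereas IFIT1 had 1.17 in the pituitary and 0.33 in the adrenal cortex. Whether breed differences differed between the glands was not tested. Adrenal medulla markers differed between the breeds in the other direction. Summed over 6 markers they came to 5492 and 4658 FPKM in the unexposed and stressed Beagle and to 3420 and 3160 FPKM in the Chinese Field Dog. All 6 were lower in the Chinese Field Dog with and without stress, as were 32.4% of all genes. Of the 6 markers, 4 were lower at an unadjusted limma p below 0.05 (3.75% of all genes). The part of the medulla markers in the member differences was not tested.

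**Figure D3:**
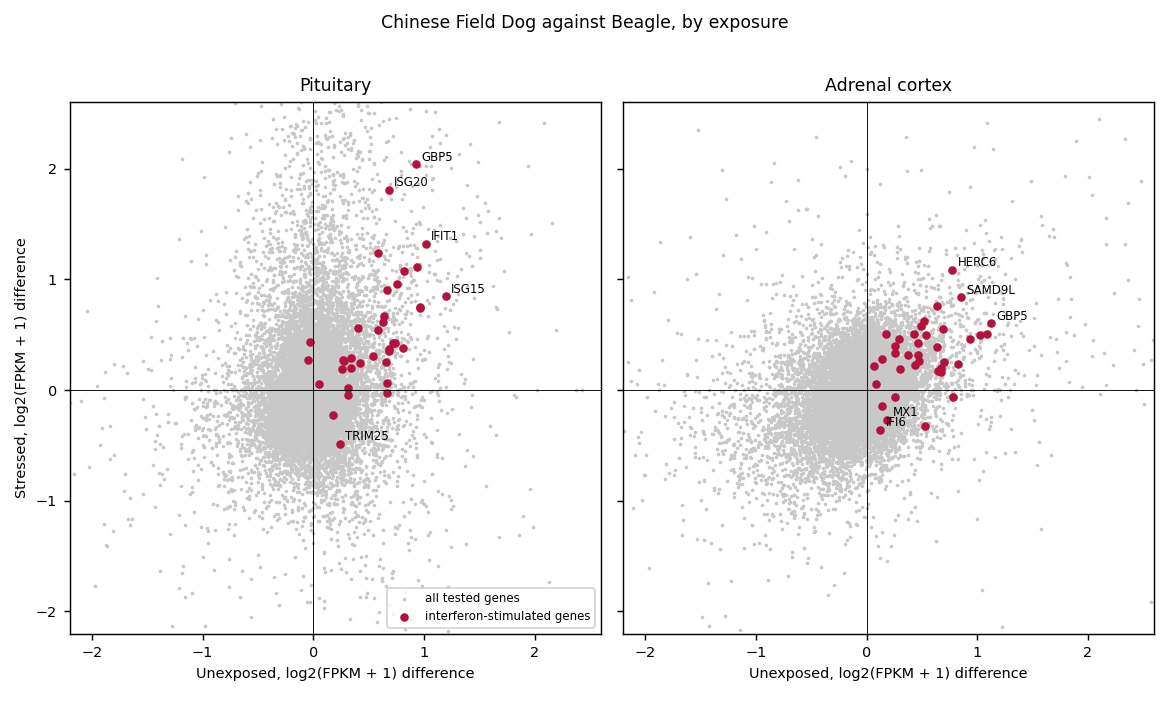
Difference in log2(FPKM + 1) between Chinese Field Dog and Beagle, in unexposed dogs on the horizontal and stressed dogs on the vertical axis, for the pituitary (left) and adrenal cortex (right). Red points are 37 interferon-stimulated genes and grey points the tested genes, of which 420 and 179 lie outside the axes. In each gland 31 red points lie in the upper right part, with GBP5 and ISG20 farthest out in the pituitary and HERC6 highest in the adrenal cortex.

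Between the glands the members split. By limma 20 of 37 passed an adjusted p below 0.05, a share close to the 55.6% of all genes, with 4 higher in the pituitary (27.5% of all genes) and 16 lower (28.1%). XAF1 was higher in the pituitary by 1.22 (SE 0.10), EPSTI1 by 0.98 (SE 0.12), IFI6 by 0.56 (SE 0.12) and IRF7 by 0.34 (SE 0.09). TRIM25 was the lowest relative to the adrenal cortex, at -1.83 (SE 0.15, adjusted p 0.00225), and IFIT3 followed at -1.73 (SE 0.10, adjusted p 0.00108). ISG15 stood at -0.96 (SE 0.12), IFIT1 at -0.79 (SE 0.10), MX2 at -0.71 (SE 0.17), RSAD2 at -0.67 (SE 0.18) and DDX58 at -0.67 (SE 0.09). ZBP1, CMPK2, IFIT2, SAMD9L, BST2, IFI44, DTX3L, HERC6 and IFI35 were lower by less, between -0.64 and -0.40. The contrast was not the same in each combination. In unexposed dogs 28 of 37 were lower in the pituitary for the Beagle (50.3% of all genes) and 29 for the Chinese Field Dog (49.9%), with median log2 differences of -0.57 and -0.41. In stressed dogs 22 were lower for the Beagle (50.1%) and 15 for the Chinese Field Dog (50.1%), with medians of -0.05 and 0.05. Lower in all 4 combinations were 11 members, as were 35.7% of all genes. Of the 16 that passed as lower, ISG15, IFIT1, RSAD2, ZBP1, CMPK2, BST2 and HERC6 were not among these 11. ISG15, for example, ranged from -2.32 in the unexposed Beagle to 0.05 in the stressed Chinese Field Dog. The call held in each fit that left out 1 library for 4 members, EPSTI1, IFIT3, TRIM25 and XAF1. For EPSTI1, whose listed span overlaps other genes, it is not settled here which gene the reads come from. Fits without an adrenal library called 5 or 7 members, and those without a pituitary 13 or 14. The residual spread of such a fit comes only from the gland that kept all its libraries. The members were not uniform within a locus either: MX1 did not pass and read 0.19 higher in the pituitary, while its neighbour MX2 passed in the other direction.

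**Figure D4:**
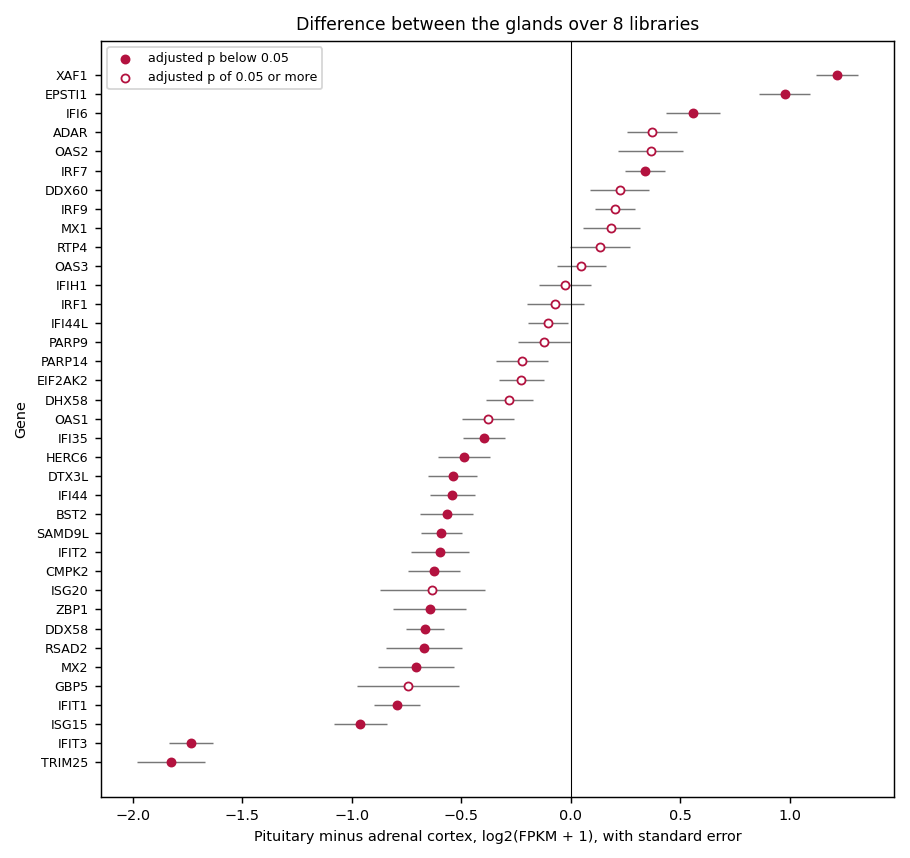
Pituitary minus adrenal cortex difference in log2(FPKM + 1) of 37 interferon-stimulated genes over 8 libraries, with bars of 1 standard error. Filled points have an adjusted limma p below 0.05. XAF1 at 1.22 and EPSTI1 at 0.98 lie farthest to the right, and IFIT3 at -1.73 and TRIM25 at -1.83 farthest to the left.

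Interferon genes themselves gave few reads. Of 16 listed ligands 3 were matched, IFNB1 at 0 reads in all 8 libraries, which allows up to 3 reads in each, IFNK with 0 to 3 reads, and IFNE with 43 to 74 reads in the pituitaries and 0 to 2 in the adrenal libraries. Of 7 receptor genes 2 were matched, and IFNGR1, a subunit of the interferon-gamma receptor, read 26.7 and 29.9 in the Beagle and 26.5 and 32.1 in the Chinese Field Dog pituitary. In receptor signalling 10 of 10 genes were tested and 0 passed for stress in the pituitary. At an unadjusted limma p below 0.05, 2 were higher, SOCS3 and JAK2 (2.93% of all genes). SOCS3, a feedback inhibitor, read 2.28 and 3.99 in the Beagle and 4.40 and 6.11 in the Chinese Field Dog pituitary. JAK2 read 6.84 and 8.46 in the Beagle and 8.64 and 13.3 in the Chinese Field Dog pituitary.

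Of 18 genes that induce interferon 15 were tested and 0 passed, with a median fitted difference of 0.09. MB21D1, the DNA sensor cGAS, was higher in both stressed pituitaries, at 0.324 and 0.746 in the Beagle and 0.670 and 1.51 in the Chinese Field Dog, with an unadjusted p of 0.0218. IRF8 differed by 0.38 and IKBKE, a kinase that activates IRF3, by -0.32. Of 17 genes known mainly as induced by interferon-gamma 11 were tested, and 0 passed. In the pituitary 11 of 11 were higher with stress in the Chinese Field Dog (45.6% of all genes), with a median of 0.57, and 6 of 11 in the Beagle (49.2% of all genes), with a median of 0.10. CXCL10, a chemokine for T cells, read 2.08 and 5.89 in the Beagle and 9.71 and 105 in the Chinese Field Dog pituitary. IDO1, which degrades tryptophan, read 0.392 and 0.379 against 3.47 and 15.4, and NLRC5, the activator of class I genes, 2.32 and 3.29 against 4.97 and 10.1. For these 3 the library with forebrain transcripts held the highest pituitary value. Between the glands, 16 of the 36 pathway genes tested passed as lower in the pituitary by limma (28.1% of all genes), from -2.88 for IDO1 to -0.32 for TRAF6, the others being TYK2, STAT3, SOCS3, MB21D1, IRF5, TLR3, TLR8, MYD88, IFNGR1, CXCL10, WARS, PSMB8, PSMB10 and NLRC5. By the same test PIAS1 and PTPN6 were higher in the pituitary, by 0.94 and 1.12 (27.5% of all genes).

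Immune cell markers also differed between libraries. Over 13 of 14 matched T and natural killer cell markers, summed FPKM was 12.1 and 9.79 in the Beagle pituitary, 55.1 and 244 in the Chinese Field Dog pituitary, and 44.5 to 113 in the adrenal libraries. Over 12 of 13 macrophage and microglia markers it was 136 and 178, 343 and 417, and 501 to 915. Over 7 of 8 B and plasma cell markers it was 27.2 and 23.0 in the Beagle and 51.7 and 114 in the Chinese Field Dog pituitary. Glial markers, all 8 matched, summed to 37.5 and 73.5 in the Beagle and 122 and 585 in the Chinese Field Dog pituitary. Within the Beagle pituitary pair, where 35 of 37 members were higher with stress, T and natural killer and B cell sums were lower in the stressed library, and macrophage and glial sums were higher. Of the 5 B and plasma cell markers tested, 4 were nevertheless higher there (49.2% of all genes), with a median log2 difference of 0.06. In both breed comparisons the Chinese Field Dog libraries had the higher T cell and macrophage sums. Of these immune and glial markers, NKG7 was at 0 in every pituitary, MS4A1 and PAX5 in the stressed and MZB1 in the unexposed Beagle pituitary, while each macrophage marker matched was above 0 in each library. The part of these cells in the member differences was not tested.

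The members were chosen as genes switched on by interferons, so their values need not be independent. The unexposed Beagle pituitary, for example, was the lowest pituitary for 34 of 37 members. Counts of members, set beside shares of all genes, are therefore not counts of independent observations. Over alternatives with all 8 libraries, median centring among them, the members' median stress difference in the pituitary was 0.60 to 0.66. Whether the member differences reflect shifts of whole libraries was not tested. Several members are also neighbours. Within 200 kb of each other lie 16 members in 6 loci: CMPK2 and RSAD2 on chromosome 17, OAS1, OAS3 and OAS2 on chromosome 26, MX2 and MX1 on chromosome 31, PARP9, DTX3L and PARP14 on chromosome 33, the 4 IFIT genes on chromosome 4, and IFI44 with IFI44L on chromosome 6. The IFIT, OAS and MX genes are also paralogues, and how the counting treated reads shared between them is not given in the sources used here. ADAR, EPSTI1, RSAD2 and IRF7 have listed spans that overlap other genes. In the authors' deposited table of each of the 8 library pairs, 0 of the 38 members had a p-value of 0.05 or less. The lowest in the authors' deposited table were 0.06315 for ISG15 in the Beagle pituitary pair and 0.0636 for GBP5 between the breeds in stressed pituitaries. For ISG15 in the Chinese Field Dog pituitary pair the authors' deposited table gives 0.0836.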

How the data were processed

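The authors aligned reads with TopHat to CanFam3.1, per the submitters' processing notes; the counting program is not given in the sources used here. The deposited values are FPKM, a scaled count (a signal that is a read count divided by 1 factor per library), and p-values of the authors for 8 library pairs over 24580 genes. A library deposited in several tables had the same values in each (16 of 16 pairs of columns).

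Dividing scaled counts by the library's step (0.899 to 1.17) gave whole reads within 0.02 for 99.5% to 99.6% of values under 200. In the 2 libraries with a step near 1 the reads are near the true counts, not exact. Precision follows from 14327357 to 18712035 reads per library.

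Genes with a mean of at least 1 FPKM over 8 libraries (14808) entered 1 limma 3.58.1 fit (R 4.3.3) on log2(FPKM + 1), with gland, and breed and exposure within gland (2 residual degrees of freedom), with Benjamini-Hochberg adjustment over these genes and a threshold of 0.05. Alternatives were a pseudocount of 0.1, no filter, a mean of at least 50 reads, a trend, median centring, 1 fit per gland, each library left out, and edgeR 4.0.16 and DESeq2 1.42.0 on recovered reads. The limma fit was also run on simulated counts with a fixed dispersion and independent genes, which does not bear on the p-values given here. No explanation was tested.

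Members and lists were chosen with earlier results of these data known. Values in all libraries are given for members passing in any contrast, the 3 with the largest pituitary stress difference and the 2 most abundant per role, and those whose breeds disagree in sign in the pituitary. GBP5, and the other members given by range, were added after their values were seen.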

Additional observations from a re-analysis of the deposited data

How the results depend on the processing

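No paired analysis was possible because each combination of breed, gland and exposure had 1 library, so that no replicate numbers could serve as a block. The fit itself compares exposures within breed and gland, with breed as a term. Over the alternatives that kept all 8 libraries, the fitted direction of stress in the pituitary held for 37 of 37 members, as did that of breed in the pituitary, and each other contrast kept 35. Without each library in turn the kept directions for stress were 34 in the pituitary, 22 in the adrenal cortex and 27 for the difference between them. They were 31 for breed in either gland and 33 for pituitary against adrenal cortex. Leaving a library out leaves 1 pair in its gland. The counts for stress and breed within a gland thus repeat those of members sharing a direction in both pairs. The median of the members for stress in the pituitary (0.63) ranged from 0.48 to 0.63 without 1 library, the low value being that of the Chinese Field Dog pair alone. The median for the difference between the glands (0.46) ranged from 0.32 to 0.55, lowest without an adrenal library of the Chinese Field Dog. On recovered reads DESeq2 called 5 members for stress in the pituitary, 1 for the difference between the glands, 5 for breed in the pituitary and 2 for breed in the adrenal cortex, where limma and edgeR called 0. For pituitary against adrenal cortex the count of 20 became 5 to 14 without 1 library. Such a fit has 1 residual degree of freedom fewer, and its residual spread comes only from the gland that kept all its libraries. Stress or breed in the other gland then rests on 1 pair of libraries, so counts at a p-value for these effects are not given.

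Over all genes, the count passing for stress in the pituitary was 1 by limma and 64 by DESeq2. In the adrenal cortex it was 1 and 10, and for the difference 2 and 27. For breed it was 3 and 220 in the pituitary and 5 and 98 in the adrenal cortex. Between the glands it was 8231, and 3760 to 7420 without 1 library. ISG15, IFIT1, IFI44L, SAMD9L and IFI44 passed for stress in the pituitary by DESeq2 only. Depth limits ISG20, ZBP1 and GBP5 in the Beagle pituitary, at 2 to 26 reads. It also limits CMPK2 and RSAD2 in the unexposed Beagle pituitary, at 15 and 19 reads.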
